A study of Mus musculus with 16 samples.

Results

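Across the genome of growing mouse oocytes, 24 stretches of 500 bp inside active genes measured under 5% methylated by bisulphite sequencing of 60–65 μm oocytes although the DNA 1 to 5 kb away was methylated on both sides. The genome was divided into fixed 500-bp tiles, and a tile entered the set if it lay on chromosomes 1 to 19, inside a gene of at least 1 RPKM (reads scaled to gene length and to library size) in both 60–65 μm RNA columns, and at least 2 kb from every gene start listed in the expression table. It further had to hold at least 5 cytosines of at least 5 calls, with a mean under 5% in both 60–65 μm reduced representation bisulphite sequencing (RRBS) libraries. Lastly, the pooled calls of the post-bisulphite adapter tagging (PBAT) library had to reach 50% over at least 20 calls on each side, from 1 to 5 kb away, wherever the host gene ended. Of 36308 tiles measured in both libraries, 994 met every criterion but the 5% limit, and 24 of these (2.41%) fell under it. Another 669 were at least 50% methylated in both libraries and are called methylated intragenic tiles, and 301 lay between.

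The oocytes came from wild-type C57BL/6 mice (C57BL/6Babr by the study's methods) and were sorted by diameter, and no group received a treatment. The mice were pre-pubertal, and larger oocytes were collected from older mice, so diameter and age cannot be told apart. RRBS was made in duplicate (A and B) for diameters of 40–45 μm, of 50–55 μm and of 60–65 μm, PBAT once for 60–65 μm, and RNA-seq in duplicate for these 3 sizes and for 10–30 μm, with 1 further column for fully grown germinal vesicle (GV) oocytes. Each library was made from a pool of oocytes, and nothing states that A and B came from separate animals, so that SDs and p-values measure only the spread between these libraries.

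DNA methylation is erased in the germ line and set anew in the growing oocyte by DNMT3A and its cofactor DNMT3L. In the oocyte this de novo methylation covers mainly the bodies of transcribed genes, where elongating RNA polymerase leaves histone marks that attract the enzyme, whereas the chromatin of active promoters repels it. CpG islands are CpG-rich stretches that often hold promoters, and those inside genes can lie at the starts of shorter transcripts.

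A choice of 6 tiles illustrates the range within the set, and 240 bp of each are given from the RefSeq GRCm38 genome, plus strand. Capitals mark the CpGs read at least 5 times in both 60–65 μm RRBS libraries. CAAA01083517.1 and Dhx30 stand for tiles at the start of a coding transcript, Iqsec1, Flcn and Gm20388 for tiles with no annotated start nearby, and Sh3pxd2a for the tile on which RRBS and PBAT differed.
CAAA01083517.1, chr1:183345031-183345270: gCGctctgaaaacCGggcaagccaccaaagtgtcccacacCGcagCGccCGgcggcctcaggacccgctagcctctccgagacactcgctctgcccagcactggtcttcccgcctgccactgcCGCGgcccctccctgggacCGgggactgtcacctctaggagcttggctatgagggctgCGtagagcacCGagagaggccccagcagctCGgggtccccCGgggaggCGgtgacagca
Dhx30, chr9:110100711-110100950: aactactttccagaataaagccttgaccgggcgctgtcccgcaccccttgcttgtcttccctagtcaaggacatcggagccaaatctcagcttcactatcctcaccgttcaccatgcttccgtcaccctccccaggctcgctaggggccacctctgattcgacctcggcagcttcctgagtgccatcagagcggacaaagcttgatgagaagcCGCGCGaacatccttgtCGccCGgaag
Iqsec1, chr6:90672021-90672260: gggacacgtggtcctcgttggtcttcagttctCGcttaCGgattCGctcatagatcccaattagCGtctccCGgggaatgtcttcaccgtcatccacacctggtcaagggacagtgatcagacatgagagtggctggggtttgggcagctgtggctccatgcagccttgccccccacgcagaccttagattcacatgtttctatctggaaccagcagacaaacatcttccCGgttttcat
Flcn, chr11:59800671-59800910: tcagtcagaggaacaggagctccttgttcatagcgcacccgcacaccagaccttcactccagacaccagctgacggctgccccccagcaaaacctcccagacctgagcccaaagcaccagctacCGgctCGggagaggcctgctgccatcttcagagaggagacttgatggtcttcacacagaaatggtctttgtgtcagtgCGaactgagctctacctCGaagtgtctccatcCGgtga
Gm20388, chr8:120441001-120441240: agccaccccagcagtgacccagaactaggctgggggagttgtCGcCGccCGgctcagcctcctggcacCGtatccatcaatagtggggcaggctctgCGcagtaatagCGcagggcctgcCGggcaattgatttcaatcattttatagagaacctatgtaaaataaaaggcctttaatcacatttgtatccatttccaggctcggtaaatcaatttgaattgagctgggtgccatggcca
Sh3pxd2a, chr19:47339161-47339400: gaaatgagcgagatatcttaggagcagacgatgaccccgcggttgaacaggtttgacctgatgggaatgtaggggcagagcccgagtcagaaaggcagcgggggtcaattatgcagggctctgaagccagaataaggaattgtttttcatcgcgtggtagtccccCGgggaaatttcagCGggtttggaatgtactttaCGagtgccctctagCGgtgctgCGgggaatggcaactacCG
RRBS reads only cytosines close to MspI sites (CCGG), so that in the Dhx30 stretch 5 of 15 CpGs were read, in the CAAA01083517.1 stretch 13 of 18 and in the Sh3pxd2a stretch 6 of 14.

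The 24 tiles formed 23 runs in 23 host genes on 13 of the 19 chromosomes. The only adjacent pair was chr17:47672001-47673000 in Gm20517, a model that takes in Usp49, which encodes a deubiquitinase. The listed names of 4 hosts were unlike those of GENCODE at the same place. CAAA01083517.1 is Mia3, which encodes a secretory protein of endoplasmic reticulum exit sites, Tenc1 is Tns2, a tensin of focal adhesions, and 1700106N22Rik is Camkmt, a calmodulin methyltransferase. The listed Rpl24 gene spans Zbtb11, a zinc finger gene, and its tile at chr16:55974001-55974500 lay by the Zbtb11 start. Exons took in part of 20 tiles, coding sequence part of 16 and untranslated regions part of 11, while the tiles of Gm20388, Flcn, 1700106N22Rik and Sh3pxd2a lay wholly in introns. Repeats never took up 50% or more of a tile.

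The tiles were selected on the 60–65 μm RRBS values, which are therefore a description without a test. Their mean was 1.51% in library A and 1.25% in library B, over 45 to 1625 calls a tile in A and 58 to 2613 in B. Of 666 single-cytosine values, 534 (80.2%) were exactly 0. Bcar1, which encodes an adhesion adaptor protein, was at 0 in 73 calls in A and in 78 calls in B, which allows up to 4.11% and 3.85%. Tenc1 was likewise at 0 in both, in 125 and in 253 calls, which allows up to 2.4% and 1.19%. These limits, like every interval given here, cover counting error only, since reads of these libraries carry no molecular identifiers. Closest under the limit were Sh3pxd2a at 3.67% and 4.69%, Brpf1 at 3.96% and 0%, and Prickle2 at 3.59% and 3.50%, in A and B. Closest above it were Agap1 at 5.73% and 3.23%, Atp6v0d1 at 4.98% and 5.91%, and Csnk1g2 at 6.43% and 5.36%.

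PBAT calls inside the tiles played no part in the choice, which used that library only at 1 to 5 kb, and they were low as well. In all, 433 of 5826 calls were methylated, or 7.43% (95% Wilson interval 6.79 to 8.13%), with a median over tiles of 7.06%. The methylated intragenic tiles stood at 69.4% of their PBAT calls (median 70.6%), and 4817 tiles that hold a listed gene start and were under 5% in both RRBS libraries at 3.21%. PBAT was a single library, so these differences have no replicate check. Among the 24 tiles, 9 were under 5%, 14 under 10% and 23 under 20%.

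**Figure D1:**
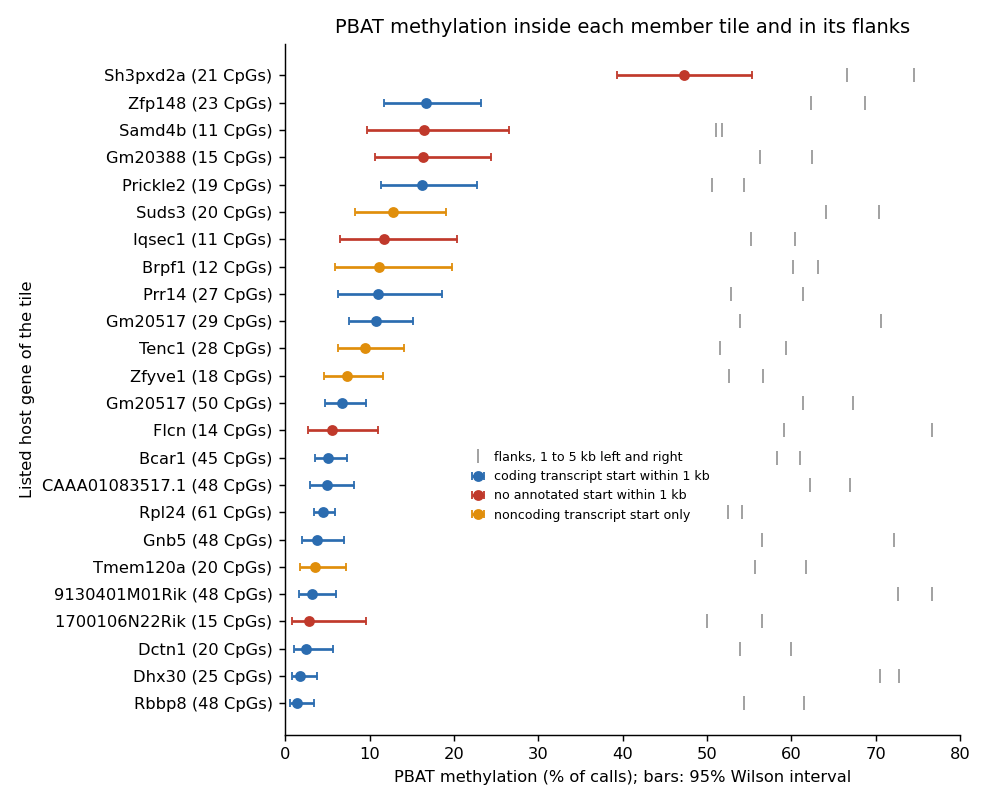
PBAT methylation (% of calls, horizontal axis) inside each of the 24 tiles (points with 95% Wilson intervals, coloured by the annotated starts within 1 kb) and in the left and right flanks that chose them (grey ticks), listed by host gene with the CpG number. In 23 tiles the interval ended below 50%, and Sh3pxd2a reached 55.3%.

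The lowest level was in Rbbp8, which encodes the DNA end resection protein CtIP, at chr18:11657001-11657500, with 4 of 297 calls methylated (1.35%, 0.525 to 3.41%). Dhx30, an RNA helicase gene, had 6 of 347 (1.73%) at chr9:110100501-110101000. Dctn1, which encodes the large subunit of dynactin, had 5 of 204 (2.45%) at chr6:83186001-83186500. 1700106N22Rik followed at chr17:85200001-85200500 with 2.78% of 72 calls, and 9130401M01Rik at chr15:58034001-58034500 with 3.14% of 255. The neighbours in this order overlapped in their intervals.

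Sh3pxd2a, which encodes a podosome scaffold protein, went against the description of the set. At chr19:47339001-47339500, 69 of 146 PBAT calls were methylated, or 47.3% (39.3 to 55.3%). At the cytosines that RRBS had read, PBAT gave 14.3% of 14 calls, and at the other cytosines of the tile 50.8% of 132. The neighbouring measured tile stood at 72.0% by RRBS. Without Sh3pxd2a the PBAT level of the set was 6.41%. The next highest tiles were Zfp148, a zinc finger transcription factor gene, at 16.7% of 162 calls, Samd4b at 16.4% of 73, Gm20388 at 16.4% of 110 and Prickle2 at 16.3% of 160, whose intervals all lay below that of Sh3pxd2a.

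The unmethylated stretch reached beyond the tile itself. In bins of 250 bp, the median PBAT level stayed between 5.26% and 9.41% up to 1 kb on either side of the tile centre. It was 21.2% and 17.8% in the next bins to the left and right, and 74.3% and 61.5% at the outermost bins. Followed outward from each tile until a bin of at least 5 calls reached 25%, the gap was 500 to 5250 bp wide, with a median of 2500 bp. Rbbp8 (5250 bp), Dctn1 (4750 bp) and Zfyve1 (4250 bp), a gene for a phosphoinositide-binding FYVE protein, had the widest gaps, and Sh3pxd2a (500 bp) and Iqsec1 (750 bp) the narrowest. Bins of fewer calls counted as part of the gap, so thin coverage widens it. Rbbp8 had only 46 and 39 PBAT calls over its left and right flanks, which stood at 54.3% and 61.5%. The levels from 1 kb outward had been used to choose the tiles.

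**Figure D2:**
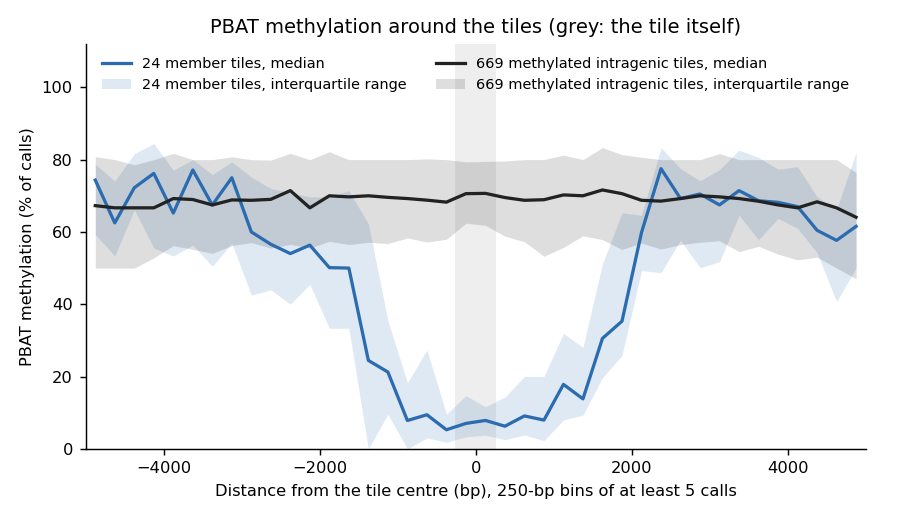
Median PBAT methylation (% of calls) in 250-bp bins by distance from the tile centre (bp) for the 24 tiles and the 669 methylated intragenic tiles, with interquartile ranges shaded and the tile in grey. The median of the 24 tiles stayed under 10% up to 1 kb from the centre, while that of the methylated tiles lay between 64.1% and 71.6% throughout.

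The rule kept tiles away from the 1 start per gene that the expression table lists, but genes have further transcripts. In the GENCODE annotation 18 of the 24 tiles (75%) had a transcript start within 1 kb, in each of the 18 at least 1 on the strand of the host gene. Among the methylated intragenic tiles, 171 of 669 (25.6%) had one. A start of a protein-coding transcript lay within 1 kb of 13 tiles (54.2%) against 57 methylated tiles (8.52%). Tiles are not replicates, so these shares are given without a test. The share rests on the annotation and on the libraries that chose the tiles. With RefSeq transcripts it was 50% against 7.92%, and with tiles chosen without 60–65 μm library B it was 22 of 41 tiles (53.7%).

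The 13 tiles near a coding start were in CAAA01083517.1, Dctn1, Prickle2, Prr14, Bcar1, Gnb5, Dhx30, 9130401M01Rik, Zfp148, Rpl24, Gm20517 (both tiles) and Rbbp8. In Prr14, whose product tethers heterochromatin to the nuclear lamina, 7 transcripts started within 1 kb, of which 4 were coding. Gnb5, a gene for a G protein beta subunit, had its tile (chr9:75314001-75314500) 2606 bp from the listed start, the nearest of all, and a start of a shorter coding transcript inside the tile. Prickle2, a planar cell polarity gene, had its tile (chr6:92481001-92481500) 224645 bp from the listed start and the start of a coding transcript inside it. In Suds3, Tmem120a, Brpf1, Zfyve1 and Tenc1 only noncoding transcripts started within 1 kb, for the most part transcripts with a retained intron. Iqsec1, Samd4b, Gm20388, Flcn, 1700106N22Rik and Sh3pxd2a had none. The Gm20388 model is 4435 kb long and spans many genes, its tile lying within Gse1.

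The tiles near coding starts were CpG-rich. They held a median of 45 CpGs (19 to 61), as did the gene-start tiles (median 45), while the 57 methylated tiles near a coding start held a median of 18. The 5 tiles near noncoding starts alone had a median of 20 (12 to 28), and the 6 without a start 14.5 (11 to 21), against 14 in all methylated intragenic tiles. Over the whole set the median was 22, which is 8 above the methylated tiles. The difference was 5 with tiles chosen without 60–65 μm library B, and 0.5 over the 6 tiles at least 2 kb from every GENCODE start. The median of the set was the higher one on 12 of the 13 chromosomes with a tile, but most of these held only 1 or 2 members. On chromosome 6, which held the most (4), the medians were 15.5 and 14. Rpl24 (at Zbtb11) had the most CpGs, 61 in 500 bp, followed by Gm20517 with 50 and by CAAA01083517.1, Gnb5, 9130401M01Rik and Rbbp8 with 48 each. PBAT levels differed in the same order, at 5.59% of calls (4.94 to 6.31%) near coding starts, 8.31% (6.65 to 10.3%) near noncoding starts and 19.3% (16.4 to 22.6%) without a start. The last value rests on Sh3pxd2a, without which it was 10.5% (8.05 to 13.6%).

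High CpG number or a coding start alone did not mark out these tiles. Of the 994 tiles between methylated flanks, 96 had a coding start within 1 kb, and 13 of them (13.5%) were unmethylated by the rule. With a coding start and at least 40 CpGs it was 7 of 10, and with at least 40 CpGs but no coding start it was 0 of 8. With a coding start and under 20 CpGs it was 1 of 47 (2.13%), the Prickle2 tile. Among the 746 tiles with neither a coding start nor 20 CpGs, 7 (0.938%) were members.

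**Figure D3:**
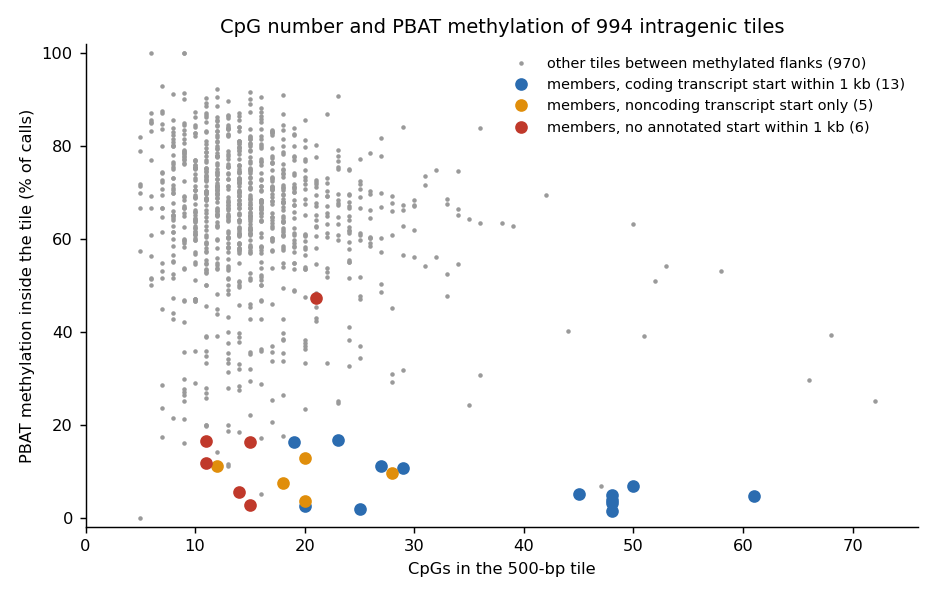
CpG number of the 500-bp tile (horizontal axis) and PBAT methylation inside it (% of calls) for the 994 intragenic tiles between methylated flanks, with the 24 unmethylated tiles coloured by their annotated starts. All 7 members with at least 40 CpGs had a coding start within 1 kb and at most 6.78% PBAT methylation.

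Letter runs were searched on both strands of each tile. CGCG was in 15 of the 24 tiles, against 26.8% of the methylated intragenic tiles, 29.4% of all 994 and 95.3% of the gene-start tiles. CGCGC, which overlaps it, was in 12, against 15.7% of the methylated tiles. The GC box GGGCGG was in 15, against 23.3%. TGACGTCA, the cyclic AMP response element, was in 2 (Dctn1 and Rbbp8), against 0.897%. CCGGAAG was in 3 against 16.0%, CACGTG in 4 against 9.72% and GCATGCGC in 1 against 1.05%. AGGNGGCAG was in none, against 5.38%. All of these runs but the last hold a CpG. Among tiles of at least 20 CpGs, CGCG was in 13 of 16 members (81.3%) against 57.9% of 121 methylated tiles, CGCGC in 11 (68.8%) against 38.0% and GGGCGG in 11 against 43.0%, which are smaller gaps than over all tiles, as were those of CCGGAAG (18.8% against 19.8%) and CACGTG (12.5% against 10.7%). Over the same tiles TGACGTCA was in 2 (12.5%) and GCATGCGC in 1 (6.25%), each against 0.826%, and AGGNGGCAG in none against 6.61%, which are wider gaps that rest on 0 to 2 members.

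The 40–45 and 50–55 μm RRBS libraries had no part in the choice. At 40–45 μm the tiles measured in both libraries averaged 1.11% ± 0.333 (SD, n = 2 libraries, 22 tiles) and at 50–55 μm 2.13% ± 1.18 (n = 2, 17 tiles). Over the same sizes the methylated intragenic tiles went from 5.63% ± 0.133 (579 tiles) to 37.5% ± 1.50 (422 tiles). The set means thus stood apart at both sizes by more than the libraries differed. Both sets were cut at opposite ends of the RRBS values of the largest oocytes, so this separation is in part built in. At 40–45 μm the methylated mean took in tiles of up to 89.0% in A and 96.0% in B. The medians in A and B were 3.47% and 2.22% there, against 0.749% and 0.0451% in the 22 tiles. Over the tiles that lay between the sets they were 2.14% and 1.05%. At 40–45 μm 20 of the 22 tiles and 324 of the 579 methylated tiles were under 5% in both libraries. At 50–55 μm the libraries disagreed on the 17 tiles, with means of 1.30% in A and 2.97% in B but medians of 1.61% and 0.385%, and 4 tiles stood at 8.70 to 14.5% in B.

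**Figure D4:**
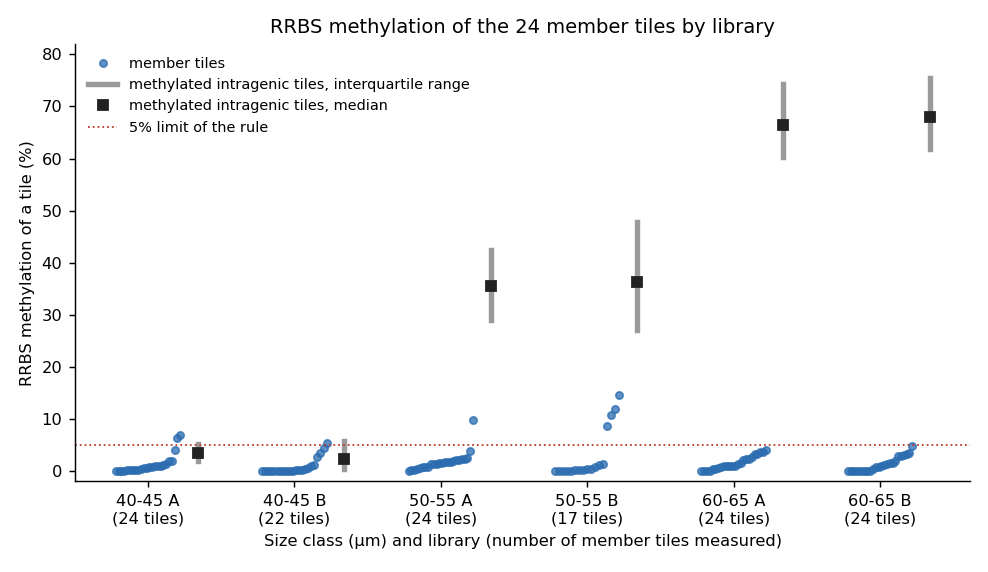
RRBS methylation (%) of the 24 tiles in each library (blue points), beside the median (black square) and interquartile range (grey bar) of the methylated intragenic tiles, with the 5% limit that chose the tiles at 60–65 μm dotted. For the methylated tiles the medians at 40–45 μm were 3.38% and 2.22%, and those at 50–55 μm 35.4% and 36.3%, while the 4 highest members in 50–55 μm library B reached 8.70% to 14.5%.

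In the sizes that did not choose the tiles, some reached 5% or more. At 40–45 μm 2 of 24 did so in A and 1 of 22 in B, and at 50–55 μm 1 of 24 in A and 4 of 17 in B. At 40–45 μm only Gm20388, at 6.94% in A and 5.28% in B, was at or above 5% in both libraries, and it was at 1.76% and 0% at 50–55 μm. Dctn1 was at 6.22% in A but 0.225% in B. At 50–55 μm Flcn, the folliculin gene, was at 1.62% in A and 14.5% in B, over 332 and 95 calls. Iqsec1, a gene for an exchange factor of ARF GTPases, was at 2.11% in A and 11.9% in B as unweighted means over 6 cytosines. Pooled, its calls gave 2.06% of 1600 in A and 5.74% of 4840 in B. Zfyve1 was at 1.61% and 10.7%, and Tmem120a at 2.45% and 8.70%. In these 4 tiles the high value was in library B only. At 60–65 μm, where the rule held every tile under 5%, they were between 0% and 3.22%. Samd4b, a gene of the Smaug RNA-binding family, was at 9.82% in 50–55 μm library A and was not measured in B. Of the 6 tiles with the most CpGs, the second Gm20517 tile was the highest, at 0.732% to 4.49% over the 6 libraries. The other 5 (Rpl24, CAAA01083517.1, Gnb5, 9130401M01Rik and Rbbp8) did not pass 1.92% in any of the 6 libraries.

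The change from 40–45 to 50–55 μm was tested over 27796 tiles with edgeR's quasi-likelihood test on methylated and unmethylated calls. Of the 17 members tested, 0 gained and 0 lost methylation at an adjusted p of 0.05, but neither did any tile in the genome (background 0%), including the methylated intragenic tiles, so this count says nothing about the members. At an unadjusted p under 0.05, 2 members gained (background 7.56% of all tiles) and 0 lost (background 0.752%). These were Sh3pxd2a (0.231% and 0.0902%, then 2.35% and 1.19%; log2 odds change 3.24, SE 1.33, adjusted p = 0.454) and Iqsec1 (log2 odds change 2.20, SE 1.02, adjusted p = 0.561). limma on the log odds did make calls. It found 1883 of all tiles gaining (background 6.77%) and 365 of 394 methylated intragenic tiles (92.6%), but 0 of the 17 members, 2 of which gained and 0 lost at an unadjusted p under 0.05 (background 12.1% and 1.45%). It called 8 tiles losing (background 0.0288%), none of them members. Restricted to tiles with a mean of at least 5%, edgeR called 49.4% of all tiles and 88.6% of the methylated intragenic tiles gaining, but no member reached that mean. The median log2 odds change by edgeR was 0.86 over the members, 0.40 over all tiles and 4.20 over the methylated tiles, which were chosen for their level at 60–65 μm.

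RNA of the host genes was tested over all 10518 genes with limma on log2(RPKM + 0.1) after scaling, a scale that understates changes of low genes. All 23 hosts passed the filter, as their choice at 60–65 μm would have it. From 10–30 to 40–45 μm, 3 of 23 were higher (background 13.8% of all genes, 15.2% of genes of at least 1 RPKM at 60–65 μm) and 1 was lower (background 9.41% and 5.84%). From 40–45 to 50–55 μm, 1 was higher (background 5.21% and 5.02%) and 0 were lower (background 3.55% and 2.67%). At an unadjusted p under 0.05 the counts were still 3 and 1 (background 20.5% and 16.4% of all genes), then 1 and 0 (background 14% and 14.7%). The median log2 change of the hosts was 0.06 and then 0.09. In pools, fewer oocytes with a transcript and less of it per oocyte cannot be told apart.

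Tenc1 (Tns2) had 0.453 and 0.725 RPKM in the 10–30 μm libraries, 0.811 and 1.22 in the 40–45 μm libraries, 1.19 and 1.58 in the 50–55 μm libraries, and finally 1.68 and 1.65. The log2 change of the first step was 0.77 (SE 0.21, limma adjusted p = 0.0344). The Gm20517 model, with Usp49 listed apart from it, went from 2.33 and 2.57 to 2.85 and 3.07 RPKM (log2 change 0.34, SE 0.09, limma adjusted p = 0.0341). Zfyve1 was higher in both steps, from 2.50 and 2.69 through 2.97 and 3.13 to 4.16 and 4.03 RPKM (log2 changes 0.30 and 0.38, limma adjusted p = 0.0437 and 0.0412). Gm20388 was lower, from 1.64 and 1.83 to 1.11 and 1.28 RPKM (log2 change -0.43, SE 0.11, limma adjusted p = 0.0232). The RPKM libraries of the first 2 classes did not overlap for these 4 hosts, nor for Flcn and Gnb5, which were also higher at 40–45 μm in both, or 9130401M01Rik, Rbbp8 and Rpl24, which were lower. Such hosts were thus 5 and 4 of 23 (background 22.4% and 37% of all genes), and in the second step 7 and 0 (background 33% and 26.5%). The remaining hosts ranged from Brpf1, a histone acetyltransferase scaffold gene, at 1.06 and 1.14 RPKM at 60–65 μm to Suds3, a gene of the SIN3 deacetylase complex, at 11.3 and 11.2.

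These calls depended on scaling and on single libraries. The background over all genes also moved when single libraries were left out, most of all in the second step. On RPKM as deposited 0 hosts were higher and 1 lower in the first step, where the calls over all genes were 1088 higher and 1521 lower, against 1454 and 990 after scaling. The 3 higher calls fell to 0 without 10–30 μm A, 40–45 μm B, 60–65 μm A or 60–65 μm B, and to 1 without 40–45 μm A, 50–55 μm A or 50–55 μm B. The lower call was lost without 10–30 μm A or 40–45 μm A, and the second Zfyve1 call without any 1 of the 40–45, 50–55 or 60–65 μm libraries.

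**Figure D5:**
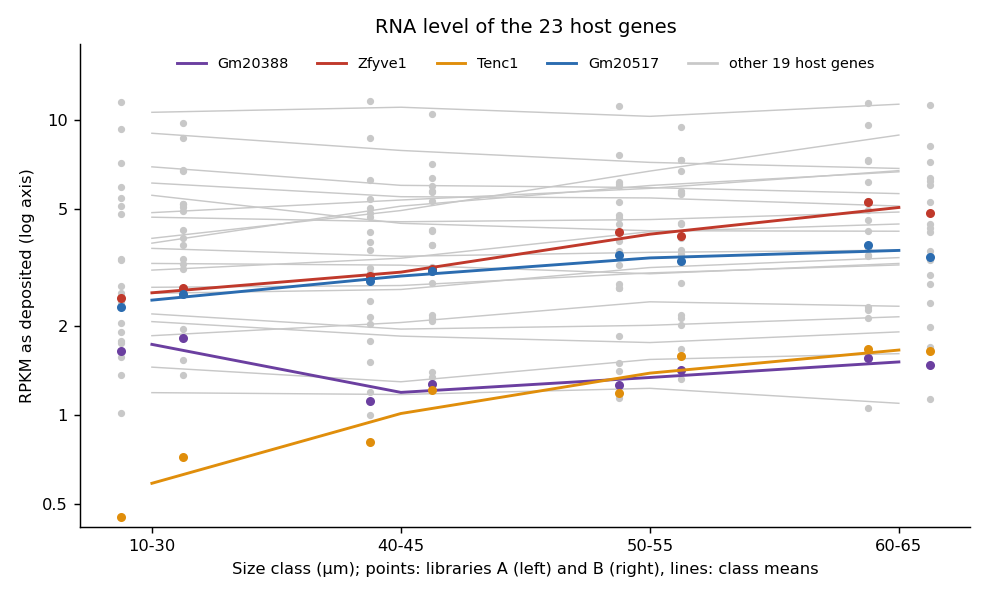
RPKM as deposited (log axis) of the 23 host genes by size class, with points for libraries A and B and lines for class means. The 4 genes with a called change are coloured, and Tenc1 went from 0.453 and 0.725 RPKM in the smallest oocytes to 1.68 and 1.65 in the 60–65 μm class.

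Of 20 genes for methylation and chromatin factors, 18 passed the filter, with Tet1 and Kmt2a (listed as Mll1) below it. From 10–30 to 40–45 μm 1 was higher and 2 were lower (background 13.8% and 9.41% of all genes), and from 40–45 to 50–55 μm 1 was higher and 1 was lower (background 5.21% and 3.55%). On RPKM as deposited, without scaling and tried after seeing the data, the counts were 1 and 4, with Dnmt3b and Dppa3 also lower, and then 2 and 1, with Dnmt3b also higher. Dnmt3l, the DNMT3A cofactor, went from 0.825 and 0.888 through 3.65 and 2.70 to 6.21 and 5.35 RPKM (log2 changes 1.84 and 0.82, limma adjusted p = 0.000921 and 0.0372). Kdm5b, a demethylase of the promoter mark on histone H3 lysine 4, fell from 1.75 and 2.04 through 0.566 and 0.751 to 0.340 and 0.405 RPKM (log2 changes -1.33 and -0.71, limma adjusted p = 0.000966 and 0.0231). Its paralogue Kdm5a was lower in the first step (log2 change -0.45, limma adjusted p = 0.0263). The second-step calls of Dnmt3l and Kdm5b depended on single libraries, 40–45 μm B and 50–55 μm A among them. Dnmt3a, at 2.22 and 2.83 and then 2.79 and 3.05 RPKM, did not pass (limma adjusted p = 0.142). These are levels of RNA in the pools and were not set against the methylation of single tiles.

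The methylation libraries held 30000113 to 57319823 calls for RRBS and 99039028 for PBAT, with a median of 5 to 20 and of 2 calls per cytosine position. Of 10 oocyte markers all 10 were present, and their summed level was 2657 to 3827 RPKM. Of 9 granulosa cell markers 2 (Nr5a2 and Cyp19a1) reached 1 RPKM in any library, with the sum at 2.03 to 9.63 RPKM, and of 8 markers of other cells 2 did (Col1a1 and Pecam1), with the sum at 1.88 to 6.09 RPKM. The granulosa sum went from 2.03 and 2.47 RPKM at 10–30 μm to 3.40 and 3.44, to 5.81 and 5.57 and to 7.72 and 7.14 at 60–65 μm, of which Nr5a2 made up 4.81 in library A of the last class. The sum of the other markers was 2.56 and 2.14 RPKM at 10–30 μm, 2.59 and 1.88 at 40–45 μm, where 3 host genes were higher, 3.79 and 3.30 at 50–55 μm, and 5.34 and 4.97 at 60–65 μm, of which Pecam1 made up 4.70 and 4.19. Col1a1 went the other way, from 1.63 and 1.16 RPKM at 10–30 μm to 0.40 and 0.241 at 60–65 μm, and so did Dcn, from 0.179 and 0.166 to 0.0365 and 0.0716. Of the granulosa markers, Amh, Foxl2 and Fshr reached at most 0.281, 0.0642 and 0.286 RPKM. Low levels did not exclude a rise. Fshr went from 0.0436 and 0.0545 RPKM at 10–30 μm to 0.238 and 0.229 at 60–65 μm. Cyp19a1 went from 0.161 and 0.159 to 1.25 and 1.04 over the same sizes. Foxl2 showed no such rise, at 0.0639 and 0.0424 and then 0.0642 and 0.0373. The part of other cells in the host gene results and in the methylation libraries, which were separate pools, was not tested.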

How the data were processed

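Methylation was analysed from the deposited Bismark coverage files, in which the authors give, per cytosine, the percent methylated and the counts of methylated and unmethylated calls on GRCm38. The submitters' processing notes name Trim Galore 0.3.5 and 0.2.8, Bismark 0.14.0 and 0.10.0 and TopHat2 2.0.9. RNA levels were the RPKM values that the authors deposited for 25965 genes, for which no source used here names the quantifier. The study's methods name Cufflinks and SeqMonk without tying either to this table. In a tile, each RRBS library was given by its unweighted mean over cytosines of at least 5 calls, and PBAT by its pooled calls. Amplified RRBS copies were not removed as duplicates, while PBAT reads were deduplicated by the authors.

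Calls per tile were tested in edgeR 4.0.16 (all 6 RRBS libraries in 1 fit, 1 mean per size class) and RPKM in limma 3.58.1 with a trend (8 libraries, genes of at least 0.5 RPKM in 2, pseudocount 0.1, trimmed-mean scaling), with Benjamini-Hochberg adjustment over all tiles or genes tested (adjusted p under 0.05) in R 4.3.3. An exact permutation test of 2 against 2 libraries cannot reach a p of 0.05, so levels averaged over the set have no test, and p-values come only from these fits over all tiles or genes. Transcript starts and exons were from GENCODE vM21, and sequences from the RefSeq GRCm38.p6 genome, with Python 3.11.15, pandas 2.3.3 and scipy 1.17.1. Both test scripts were checked on simulated data. Named were the 8 runs with the most tiles, ties by calls, the 6 tiles with the most CpGs, the 5 with the highest and the 5 with the lowest PBAT level, the 5 with the highest RRBS level at 40–45 and at 50–55 μm, 3 on either side of the 5% limit, called host genes, and the hosts of highest and lowest RPKM. Tiles listed by their annotated starts, and those at 0 in both 60–65 μm RRBS libraries, are named as complete groups. The members, gene lists, motifs and tests were chosen with earlier results of these data known.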

Additional observations from a re-analysis of the deposited data

How the results depend on the processing

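The number of tiles depended on the rule, at 24 as given. It was 76 with the flank calls of both sides pooled, 6 when every GENCODE transcript start had to be 2 kb away, 14 under a limit of 2%, 8 with flanks of at least 60%, 6 with hosts of at least 5 RPKM, and 27 to 41 when 1 of the 60–65 μm RRBS libraries was left out, the latter without B. A shifted grid (29), 10 calls per cytosine (19), 5 kb from listed starts (22), pooled calls (23) and a limit of 10% (32) kept it within 1.5 times. The PBAT level of 7.43% was 6.63% on the shifted grid, 5.23% with pooled flanks, 19.3% away from GENCODE starts, 6.71% over cytosines of at least 5 calls, and 7.95 to 8.35% without 1 RRBS library. The CpG difference of 8 was 10 on the shifted grid and with pooled flanks, 6.5 at 5 kb, 0.5 away from GENCODE starts, and 5 to 6 without 1 library. The share of tiles with a start within 1 kb, for which every alternative was chosen after seeing the data, was 50% with RefSeq and 53.7 to 74.1% without 1 library, against 75%. RRBS levels of 1.11% and 2.13% were 1.28% and 2.03% with 10 calls per cytosine and 1.08% and 2.05% with pooled calls. Leaving out 1 of 2 libraries gives only the level of the other, which says nothing about stability.

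The member tiles called gaining or losing were 0 under every alternative that tested any. With only tiles of a mean of at least 5%, edgeR called 1909 of 3865 tiles gaining (49.4%), but no member was tested. Host genes called higher and lower were 3 and 1, then 1 and 0. On RPKM as deposited the first was 0. Without a filter the counts were 2 and 0, then 0 and 0. Leaving out 1 library gave 0 to 3, 0 to 1, 0 to 1 and 0 to 0. With the library letter as a replicate block the host counts were 4 and 1, then 1 and 0, and the tile counts 0 and 0. The added host was Prr14 (limma adjusted p = 0.0220, against 0.275). Of the 18 factor genes the block, tried on them after seeing the data, called 2 higher (Dnmt1 and Dnmt3l) and 3 lower (Tet2, Kdm5a and Kdm5b), then 2 higher (Dnmt3b and Dnmt3l) and 3 lower (Dppa3, Kdm1b and Kdm5b). The differences between A and B within a class were also compared between classes. For RNA these differences correlated at 0.588 to 0.669 among the 3 smaller classes but at -0.227 to 0.113 with 60–65 μm. For RRBS they correlated at -0.0462 to 0.0260. No source says that the letters mark a shared pool or day, so they were not taken to pair the libraries.

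Depth limits the thinnest tiles, which rest on as few as 29 calls in an RRBS library (Bcar1 at 40–45 μm, where 0 methylated calls allow up to 10.3%) or 72 in PBAT. In 2 libraries per size the spread itself is poorly known. The PBAT library has no replicate, and a methylated minority of oocytes cannot be told from partial methylation in each.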

Other observations

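Several tiles between methylated flanks with at least 40 CpGs were not in the set, and they are named here after their values were seen. Prdm2, a histone methyltransferase gene, held 47 CpGs at chr4:143161501-143162000, and its nearest GENCODE start was 4603 bp away. It stood at 2.45% and 7.95% by RRBS at 60–65 μm and at 6.73% of 490 PBAT calls, so that only library B kept it out. Its smaller classes were at 0.504% and 1.01%, then 0.841% and 0.588%.

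The 3 tiles with at least 40 CpGs and a coding start within 1 kb that were not in the set lay in Osbp2 and Grb10. The Osbp2 tile at chr11:3774501-3775000 held 50 CpGs with a coding start inside and went from 1.35% and 0% in the 40–45 μm libraries through 25.1% and 32.8% in the next class to 59.5% and 65.9% in the largest. The adjacent tiles of Grb10, an imprinted gene, held 51 and 72 CpGs at chr11:12025501-12026500. The second had a coding start inside and was already at 15.8% and 11.8% in the 40–45 μm libraries, then at 17.0% and 14.9% and lastly at 41.6% and 53.0%, with 25.1% of 602 PBAT calls. The most CpG-rich methylated tile without a coding start lay in Shroom3, with 58 CpGs and 52.5% and 66.1% at 60–65 μm.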
